A study of Mus musculus with 4 samples.

Results

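The members were array oligos in which the middle of 4 varied bases was TC, on either strand, with a purine on each side. Of 6126 oligo names on the arrays, 5376 belonged to 21 libraries in which 4 neighbouring bases ran through every combination. A name was kept where its ending was ATCA or ATCG, or GTCA or GTCG, which put TC on the listed strand, or TGAT or CGAT, or TGAC or CGAC, which put the same 4 contexts on the opposite strand. This gave 8 members per library, 84 with TC on the listed strand and 84 with TC on the opposite strand, each of a different sequence. The choice used only the letters of the names and no measured value. Contexts are written below 5′ to 3′ on the strand that holds TC, so a CGAT ending is an ATCG context on the opposite strand.

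The study bound antibodies to designed DNA oligos on arrays, on an irradiated (UV) and a non-irradiated (non-UV) array for each of 2 antibodies. One antibody binds cyclobutane pyrimidine dimers (CPD) and was diluted 1 in 400, the other binds 6-4 photoproducts (6-4PP) and was diluted 1 in 80. The groups were thus CPD UV, CPD non-UV, 6-4PP UV and 6-4PP non-UV, with 1 array in each. The labels name the mouse as organism and carry no genotype or age, and the oligos are synthetic. For both 6-4PP arrays, the title in the labels gives the opposite condition from the array condition field. The field was followed throughout, and the values under the title are given at the end.

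Every member had 10 replicate spots on each array, and the value of a member is the median of its unflagged spots, as fluorescence intensity on a linear scale. Flags marked 8 of the 1680 member spots on the 6-4PP UV array and 31 without irradiation, and 0 with the anti-CPD antibody. The scale ended at 65535, which 399 member spots reached on the 6-4PP UV array, so values there are lower bounds. The median SD over the spots of a member, on the log2 scale, was 0.72 with UV and 0.22 without UV for CPD, and 0.25 with UV and 0.15 without UV for 6-4PP. Across the CPD UV array the median intensity around a spot ranged from 1179 to 7868, and after the deposited correction for it the spot SD was 0.26. Replicate spots share an array, so tests over spots compare oligos on that array, no test between conditions could be made, and p-values cover the spread of spots only.

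UV light joins neighbouring pyrimidines of a DNA strand. In a CPD the bases are linked by a ring, whereas a 6-4 photoproduct links them by a single bond that turns the downstream base and bends the helix more. TT is known as the most frequent site of CPD, and TC as a favoured site of 6-4 photoproducts. Nucleotide excision repair removes both lesions, which otherwise block polymerases, and deamination or misreading of the cytosine in damaged TC underlies the C-to-T changes typical of sunlight. The libraries were built on binding sites of MITF, a regulator of melanocytes, of TBP, which binds TATA boxes, and of p53, which responds to DNA damage.

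The sequences below show how little a member varied, with the 4 varied bases in capitals. The surrounding bases alternated between purines and pyrimidines, so a dipyrimidine could lie only within the varied bases or where they met the surrounding bases. In the libraries of 59 bases a member held either TC alone or TC and an edge dipyrimidine on each side, 3 in all. In those of 60 bases every member held TC and 1 edge dipyrimidine, 2 in all. The 8 members of a 59-base library come first, since its first 4 endings hold TC as their only dipyrimidine.
MITF_Ex_ebox_59_ATCA: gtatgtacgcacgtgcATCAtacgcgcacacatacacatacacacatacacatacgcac
MITF_Ex_ebox_59_ATCG: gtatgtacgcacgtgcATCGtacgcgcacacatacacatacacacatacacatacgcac
MITF_Ex_ebox_59_GTCA: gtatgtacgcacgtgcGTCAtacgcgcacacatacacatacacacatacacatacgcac
MITF_Ex_ebox_59_GTCG: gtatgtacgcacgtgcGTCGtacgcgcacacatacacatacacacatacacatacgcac
MITF_Ex_ebox_59_TGAT: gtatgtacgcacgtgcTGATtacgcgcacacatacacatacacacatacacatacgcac
MITF_Ex_ebox_59_CGAT: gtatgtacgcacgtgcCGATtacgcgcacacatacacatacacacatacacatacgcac
MITF_Ex_ebox_59_TGAC: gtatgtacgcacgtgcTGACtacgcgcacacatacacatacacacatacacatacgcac
MITF_Ex_ebox_59_CGAC: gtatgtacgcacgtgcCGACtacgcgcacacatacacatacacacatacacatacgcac

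The next set holds members that stood at an extreme of the 6-4PP UV or CPD UV array or that show an edge discussed below, from each kind of backbone.
MITF_ebox_59_CGAC: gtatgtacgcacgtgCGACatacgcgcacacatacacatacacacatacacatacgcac
MITF_ebox_59_GTCG: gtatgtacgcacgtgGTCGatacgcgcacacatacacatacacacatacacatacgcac
MITF_ebox_59_ATCG: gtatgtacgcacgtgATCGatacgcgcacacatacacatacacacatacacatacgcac
MITF_Ex_ebox_60_ATCA: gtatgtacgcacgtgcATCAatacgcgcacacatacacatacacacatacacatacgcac
MITF_Ex_ebox_60_GTCG: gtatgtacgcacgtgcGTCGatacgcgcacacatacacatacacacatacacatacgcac
MITF_ebox_60_ATCA: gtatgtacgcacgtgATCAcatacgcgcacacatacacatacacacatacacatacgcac
MITF_ebox_60_CGAC: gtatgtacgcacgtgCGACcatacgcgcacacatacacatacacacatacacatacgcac
TBP_59_ATCA: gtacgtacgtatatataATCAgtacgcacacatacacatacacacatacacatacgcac
TBP_60_ATCG: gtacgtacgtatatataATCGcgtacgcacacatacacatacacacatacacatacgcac
TBP_E59_TGAT: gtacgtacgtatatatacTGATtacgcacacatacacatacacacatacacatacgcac
TBP_E60_ATCA: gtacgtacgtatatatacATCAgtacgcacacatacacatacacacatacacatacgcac
p53_60_ATCA: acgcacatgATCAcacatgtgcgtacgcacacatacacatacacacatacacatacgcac
p53_E60_GTCG: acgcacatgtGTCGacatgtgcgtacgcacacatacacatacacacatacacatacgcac
p53_E_mut_60_ATCA: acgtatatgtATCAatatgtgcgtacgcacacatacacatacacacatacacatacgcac

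The last set holds GTCA endings followed by CA, among them the member with the highest signal without irradiation.
MITF_ebox_60_GTCA: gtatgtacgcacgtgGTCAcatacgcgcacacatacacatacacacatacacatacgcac
MITF_sebox_60_GTCA: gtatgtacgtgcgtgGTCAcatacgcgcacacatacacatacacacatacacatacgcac
NP_MITF_ebox_60_GTCA: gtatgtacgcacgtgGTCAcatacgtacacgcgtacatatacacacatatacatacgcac
p53_60_GTCA: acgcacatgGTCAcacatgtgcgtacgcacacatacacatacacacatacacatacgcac

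Every member was brighter on the UV array than on the non-UV array with both antibodies. With the anti-CPD antibody the members had a lowest, median and highest intensity of 898, 4016.25 and 11981 on the UV array, against 26, 30 and 229.5 on the non-UV array. With the anti-6-4PP antibody the corresponding values were 5987, 21258 and 65535 on the UV array, against 32, 56.5 and 275.5 on the non-UV array. The UV and non-UV ranges did not overlap for either antibody. The median difference, UV minus non-UV on the log2 scale, was 7.10 for CPD (range 3.75 to 8.25) and 8.55 for 6-4PP (range 5.72 to 10.85), where the 6-4PP differences of 47 members at the ceiling are lower bounds. The 208 names with no dipyrimidine had medians of 6.38 for CPD and 6.53 for 6-4PP, so they too were brighter after irradiation. All 5376 names with 4 varied bases were brighter on the UV array with both antibodies, with medians of 7.11 for CPD and 8.17 for 6-4PP. The CPD difference of the members was thus close to that of all names. With 1 array per condition, none of these differences has a replicate check.

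Among the members, the contexts with A before TC had the larger 6-4PP difference. Its median was 9.92 for ATCA, 9.95 for ATCG, 7.68 for GTCA and 7.73 for GTCG, with 42 members each. At the ceiling were 25 ATCA and 22 ATCG members, so the medians of ATCA and ATCG are lower bounds and their order is not resolved. For CPD the medians ran closer, at 7.58 for ATCA, 7.30 for ATCG, 6.74 for GTCA and 6.63 for GTCG. The smallest difference of any member with either antibody belonged to MITF_ebox_60_GTCA, which was also the brightest member without irradiation.

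The question of how the bases beside TC bear on antibody signal is clearest where TC was the only dipyrimidine. There were 32 such members, 4 in each of the 8 libraries of 59 bases, 16 with TC on the listed strand and 16 with TC on the opposite strand. In MITF_Ex_ebox_59, the 6-4PP UV intensity was 34748 ± 11063 for ATCA, 20816 ± 2223 for ATCG, 10269 ± 2972 for GTCA and 8040.5 ± 1622 for GTCG (SD over 10 spots each). The same oligos had 62, 57, 59 and 57 on the 6-4PP non-UV array. Irradiated, ATCA thus stood 4.32-fold above GTCG, against 1.09-fold without irradiation.

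On the CPD UV array these oligos had 5485 ± 2121 for ATCA, 4225.5 ± 1839 for ATCG, 1793.5 ± 1800 for GTCA and 2347 ± 555 for GTCG (SD over 10 spots each). On the CPD non-UV array they had 29, 30, 28.5 and 27.5. Both oligos with A before TC were above both with G, and the spots of GTCA spread as widely as its level.

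The 6-4PP order recurred in the other libraries. ATCA exceeded ATCG, ATCG exceeded GTCA and GTCA exceeded GTCG in 8 of the 8 sets on the 6-4PP UV array, and the ratio of ATCA to GTCG lay between 3.24 and 4.43. Over the 8 sets ATCA had a median of 31462.75 (21705 to 35676.5), ATCG of 19367.5 (17987 to 28124.5), GTCA of 9950.25 (7644.5 to 12698) and GTCG of 7614.5 (5987 to 8961.5). The ranges of ATCA and ATCG overlapped, as did those of GTCA and GTCG, but no oligo with A before TC came as low as one with G. Names without a dipyrimidine reached from 3237.5 to 8599.5 on this array, a range that covers most of the GTCG values.

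With the anti-CPD antibody after irradiation the same full order held in 2 of the 8 sets, and in 5 after the deposited correction for local intensity. Medians were 4940.5 for ATCA (2292 to 5485), 4416.25 for ATCG (3838.5 to 6186), 3020.25 for GTCA (1793.5 to 3491) and 2443.75 for GTCG (1975 to 3706.5). Both oligos with A exceeded both with G in 6 sets, and in 8 after the correction. The names without a dipyrimidine ranged from 972.5 to 4441, so all values of GTCA and GTCG lay inside that range. The lowest ATCA and ATCG values and the ATCG median lay inside it as well. On the non-UV arrays the full order held in 0 of the 8 sets with either antibody, and after the correction in 2 for CPD and 1 for 6-4PP.

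Of the flanking bases, the base before TC made the larger difference. A library and strand gave 84 pairs of members that differed only by A or G at that position. On the 6-4PP UV array the member with A was brighter in 84 of 84 pairs, by a median of 1.85 on the log2 scale (range 0.41 to 2.85). In 47 of these pairs the member with A was at the ceiling, so the median and both ends of the range are lower bounds. All 84 passed an exact two-sided permutation test over spots at an adjusted p of 0.05, against 52.6% called higher among all 2688 pairs with A against G at that outer base. Where TC was the only dipyrimidine, all 16 pairs passed with a median of 1.50, and no oligo was at the ceiling. The Benjamini-Hochberg adjustment ran over 36792 pairs within the 21 libraries. These differed by 1 substitution, by an exchange of the inner bases or by reverse complementation of the 4 varied bases.

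The widest of these differences was in MITF_Ex_ebox_59 between CGAT, at 65535 ± 5311, and CGAC, at 9072.5 ± 1303 (SD over 10 spots; difference 2.85, a lower bound; exact permutation test, adjusted p = 3.44e-05). The narrowest was in MITF_ebox_59 between ATCG, at 65535 ± 8737, and GTCG, at 49275 ± 14193 (difference 0.41, a lower bound; exact permutation test, adjusted p = 0.0148). The GTCG oligo of that last pair was the brightest of all 84 members with G before TC.

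With the anti-CPD antibody the member with A was brighter in 78 of 84 pairs, by a median of 0.77 on the log2 scale. The test passed in 32 pairs, or 38.1%, against 37.3% called higher among all A against G pairs, so the members did not stand apart. After the deposited correction 72 pairs passed, or 85.7%, against 67.0%. In the 16 pairs with TC alone the median was 0.72, and 2 passed, or 12.5%, before the correction and 16, or 100%, after it. The shares of 37.3% and 67.0% are not restricted to such pairs. The largest difference lay between MITF_ebox_60_CGAT, at 4399.5 ± 1849, and MITF_ebox_60_CGAC, at 898 ± 924.6 (SD over 10 spots; difference 2.29; exact permutation test, adjusted p = 0.00487). The correction put the CGAC oligo at 2019.7. The smallest difference was between MITF_Ex_ebox_60_ATCA, at 6250, and MITF_Ex_ebox_60_GTCA, at 6253 (exact permutation test, adjusted p = 0.419).

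Without irradiation few of the same pairs were called. For CPD the member with A was called higher in 4 pairs, or 4.76%, against 9.67% of all such pairs. It was called lower in 3, or 3.57%, against 0.372%. For 6-4PP it was called higher in 7, or 8.33%, against 4.72%, and lower in 4, or 4.76%, against 0.595%. Lower calls were thus more frequent in the members than among all such pairs. The 3 pairs called lower with the anti-CPD antibody and the 4 with the anti-6-4PP antibody all had a GTCA ending followed by CA as the brighter oligo.

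The base after TC made a smaller difference, and its direction on the 6-4PP UV array varied with what lay beyond it. Of 84 pairs with A against G after TC, 22 were at the ceiling in both oligos and could not be ordered. In the other 62 the member with A was brighter 42 times and dimmer 20 times, with a median of 0.19 on the log2 scale. The test called 21 higher, 25.0% of the 84 against 30.5% of all such pairs, and 7 lower, 8.33% against 19.2%. Where TC was the only dipyrimidine, A gave the brighter oligo in 16 of 16 pairs by a median of 0.40. Of these 11 passed, or 68.8%, whereas the 30.5% covers pairs with any edges.

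The 7 pairs called lower came from 7 different libraries. In 4 of them, G after TC was followed by A, and the oligo with G then read TC on the other strand across that edge. Examples were MITF_sebox_59_GTCA at 29626.5 ± 3163 against MITF_sebox_59_GTCG at 40684 ± 6096 (SD over 10 spots each; difference -0.46; exact permutation test, adjusted p = 8.65e-05) and MITF_Ex_sebox_60_GTCA at 21065.5 ± 1807 against MITF_Ex_sebox_60_GTCG at 27951 ± 2854 (difference -0.41; exact permutation test, adjusted p = 0.000111). With A before TC, the member with A after it was brighter in 20 of the 20 pairs that could be ordered. With G before TC it was brighter in 22 of 42.

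The largest 6-4PP difference for this position was TBP_MUT_60_ATCA, at 65535 ± 424, against TBP_MUT_60_ATCG, at 34645 ± 6098 (SD over 10 spots each; difference 0.92, a lower bound; exact permutation test, adjusted p = 3.44e-05). The smallest was TBP_E60_TGAC, at 10947, against TBP_E60_CGAC, at 11210 (exact permutation test, adjusted p = 0.871). For CPD, A after TC was brighter in 60 of 84 pairs by a median of 0.27, and 15 passed, or 17.9%, against 24.0%. Of the 16 pairs with TC alone 0 passed the exact permutation test there, and 0 had an unadjusted p below 0.05. After the correction for local intensity 4 of these 16 were called higher and 1 lower. Of the 84 pairs, 34 were then called higher, or 40.5%, against 53.8%, and 1 lower, or 1.19%, against 1.00%. The CPD extremes were MITF_Ex_ebox_60_GTCA, at 6253 ± 1625, against MITF_Ex_ebox_60_GTCG, at 2100 ± 2926 (difference 1.57; exact permutation test, adjusted p = 0.00901), and MITF_ebox_60_TGAT, at 4469.5, against MITF_ebox_60_CGAT, at 4399.5 (adjusted p = 0.79 in the exact permutation test).

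A median at the ceiling of the 6-4PP UV array was reached by 47 members, or 28.0%, against 260 of 5208 other names with 4 varied bases, or 4.99%. All 47 had A before TC. They were 25 of the 42 ATCA members and 22 of the 42 ATCG members, with 0 of the 42 GTCA and 0 of the 42 GTCG members. Every one of the 28 members in which G preceded the A was among them. GATC reads the same on both strands, so these oligos held an overlapping TC on each strand, as in MITF_ebox_60_ATCA above. Of the 16 members with AATC, 13 were at the ceiling, against 4 of 24 with CATC and 2 of 16 with TATC.

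Counting ATC on either strand ordered the members further, a grouping chosen after the values had been seen. The 31 members with 2 or 3 copies were all at the ceiling. Those with 1 copy numbered 58, with a median of 32180.25 (17987 to 65535) and 16 at the ceiling. The 79 with 0 copies had a median of 11210 (5987 to 30560.5), so they overlapped with the lower part of the members with 1 copy. GATC outside the members was at the ceiling in 32 of 49 names, and the others ran from 29016.5 to 65022.

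Members with TCGA, in which TC and its reverse complement meet, show the count with the edge after TC held the same. The edge before TC was not held the same. MITF_ebox_59 and MITF_sebox_59 place G before the varied bases, which adds a dipyrimidine there that the other TCGA members lack. In these libraries the ATC count and that edge cannot be told apart. With A before the central TC, all 5 with a further ATC were at the ceiling, and the 3 without one ran from 22469 to 26555. With G before the central TC, the 5 whose other strand read ATC ran from 26336 to 49275, and the 3 without that ATC from 9761 to 12356. MITF_ebox_59_GTCG, at 49275, and p53_E60_GTCG, at 9761, share the ending and differ in the bases beyond it, as printed above. In CPD intensity the same groups with G before TC ran from 2100 to 3317.5 with that ATC and from 2188.5 to 4205 without it, which overlap.

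TT at an edge went with the CPD signal. The 32 members that had TT where the varied bases met the backbone had a CPD UV median of 7748 (4791.5 to 11981), and the 136 others of 3600.75 (898 to 7010). An edge TT needs an A beside TC and adds a dipyrimidine, and all members with TC alone are among the others. This split therefore does not separate TT from the flanking base or from the number of dipyrimidines. The 3 brightest CPD UV members, TBP_E59_TGAT at 11981 ± 2901, TBP_E59_CGAT at 11340.5 ± 2452 and TBP_MUT_E59_TGAT at 10874.5 ± 3282 (SD over 10 spots each), all read AATC on the opposite strand and so had TT at that edge on the listed strand. The 3 dimmest, MITF_ebox_60_CGAC at 898 ± 924.6, MITF_Ex_ebox_59_GTCA at 1793.5 ± 1800 and TBP_60_TGAC at 1867.5 ± 1469, all had G before TC and no TT. Their spots spread almost as widely as their level, and the correction for local intensity raised them to 2019.7, 2733.8 and 2428.7.

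Below the ceiling, the brightest 6-4PP UV members were TBP_MUT_59_ATCG at 63682 ± 15794, TBP_60_ATCG at 54066 ± 9620 and MITF_ebox_59_GTCG at 49275 ± 14193 (SD over 10 spots each). The dimmest were MITF_ebox_59_CGAC at 5987 ± 1618, TBP_59_CGAC at 6797.5 ± 1278 and MITF_Ex_ebox_60_TGAC at 7076 ± 2754. The 3 dimmest all read GTC and had neither an edge TT nor an ATC. Members with neither ATC nor an edge TT, 71 in all, stayed between 5987 and 15822.5.

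Members that put a context on the opposite strand were compared with those that put it on the listed strand of the same library, in 84 pairs. The edges of such a pair also differ, and no library holds TC alone on both strands, so strand and edge cannot be told apart. With the anti-6-4PP antibody the opposite strand was brighter in 24 and dimmer in 48 of 72 pairs below the ceiling, by a median of -0.19 on the log2 scale. The test called 15 higher and 32 lower, 56.0% of the 84, against 69.9% of all reverse-complement pairs. In the 36 pairs with the same types of edge dipyrimidine the median was -0.17. Of these, 2 were called higher and 9 lower, or 30.6% in all, whereas the 69.9% is not restricted by edges.

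The widest 6-4PP pair was MITF_ebox_59_CGAC, at 5987 ± 1618, against MITF_ebox_59_GTCG, at 49275 ± 14193 (SD over 10 spots each; difference -3.04; exact permutation test, adjusted p = 3.44e-05). The CGAC oligo held TC alone, and the GTCG oligo held TC on each strand and a CC edge. The narrowest was p53_E60_CGAC, at 10054, against p53_E60_GTCG, at 9761 (exact permutation test, adjusted p = 0.613). The CPD median was -0.14, with 8 called higher and 13 lower, 25.0% against 30.6%. Its direction turned with the pairs used, to 0.10 in the 36 pairs with the same types of edge dipyrimidine and to 0.04 in the 32 pairs of 59 bases. Of those 36, 1 was called higher and 2 lower, or 8.33% in all, whereas the 30.6% is not restricted by edges. Of the 8 called higher among all 84 CPD pairs, 7 were in the 59-base libraries MITF_Ex_ebox_59, MITF_Ex_sebox_59, TBP_E59 and TBP_MUT_E59, whose TGAT and CGAT endings bring a TT edge. The widest was TBP_E59_TGAT, at 11981 ± 2901, against TBP_E59_ATCA, at 2820.5 ± 1688 (difference 2.09; exact permutation test, adjusted p = 0.000217), and the narrowest p53_E60_TGAT, at 8191.5, against p53_E60_ATCA, at 8200.5 (adjusted p = 0.585 in the exact permutation test).

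Next, TC was set against TT, CC and CT between the same flanking purines, with 1 pair for each member, in which the edges are unchanged. Against TT, TC was dimmer with the anti-CPD antibody and mostly brighter with the anti-6-4PP antibody. After irradiation TC had the lower CPD intensity in 157 pairs and the higher in 11, by a median of -0.66 on the log2 scale. The test called 92 lower, or 54.8%, against 32.0% among all pairs with C against T at that base, and 143 lower after the correction for local intensity, or 85.1%, against 62.4%. The share differed by strand. With TC on the opposite strand 18 of 84 were called lower, or 21.4%, against 20.9% of such pairs on that strand, and the median was -0.43. With TC on the listed strand 74 of 84 were called lower, or 88.1%, against 43.2%, and the median was -1.0. After the correction 63 were called on the opposite strand, or 75.0%, against 55.0%, and 80 on the listed strand, or 95.2%, against 69.8%. The difference between strands was not tested. In 6-4PP intensity TC was higher in 125 of the 157 pairs below the ceiling, by a median of 0.32, with 81 called higher and 10 lower (48.2% against 18.7%, and 5.95% against 37.4%).

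The 6-4PP difference of TC from TT varied with the base before it. The median was 0.64 for ATCA and 0.83 for ATCG, in which every pair that could be ordered was higher. It was 0.16 for GTCA and 0.13 for GTCG, in which 29 and 23 of 42 were higher. TC was at the ceiling in 25 ATCA and 22 ATCG pairs, so the medians of ATCA and ATCG are lower bounds. Where the pair was the only dipyrimidine, TC was higher in 32 of 32 pairs, with a median of 0.67. The test called 21, or 65.6%, against 18.7% of all pairs with C against T at that base, whatever their edges. The widest was TBP_60_ATCG, at 54066 ± 9620, against TBP_60_ATTG, at 19846.5 ± 2615 (SD over 10 spots each; difference 1.45; exact permutation test, adjusted p = 3.44e-05). The widest CPD difference was TBP_E59_ATCA, at 2820.5 ± 1688, against TBP_E59_ATTA, at 13009 ± 1812 (difference -2.21; exact permutation test, adjusted p = 0.000217).

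The narrowest TC against TT pairs were NP_MITF_ebox_60_CGAT, at 5908, against NP_MITF_ebox_60_CAAT, at 5838.5, on the CPD UV array (exact permutation test, adjusted p = 0.899) and MITF_ebox_60_TGAT, at 65535, against MITF_ebox_60_TAAT, at 65477, on the 6-4PP UV array (exact permutation test, adjusted p = 0.0466), where the ceiling hides their true distance. Some of the same order was present before irradiation. On the CPD non-UV array TC was called lower than TT in 32 pairs, or 19.05%, against 8.22%, and higher in 2, or 1.19%, against 0.260%. The share called lower differed by strand here too, with 28 of 84 on the listed strand, or 33.3%, and 4 of 84 on the opposite strand, or 4.76%. The share over all pairs was not taken by strand for this array. The median difference there was -0.14. Whether that carries over to the CPD UV array was not tested.

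Against CC, TC was brighter in every pair on the 6-4PP UV array, by a median of 1.12 on the log2 scale. The test called 157 higher, or 93.5%, against 45.2% of all pairs with T against C at that base. By context the median was 1.85 for ATCA, 1.60 for ATCG, 0.79 for GTCA and 0.68 for GTCG. TC was at the ceiling in 25 ATCA and 22 ATCG pairs, so the medians of ATCA and ATCG are lower bounds. The widest was p53_60_ATCG, at 65535 ± 15137, against p53_60_ACCG, at 9170.5 ± 1977 (SD over 10 spots each; difference 2.84, a lower bound; exact permutation test, adjusted p = 3.44e-05). The narrowest was p53_E60_TGAC, at 9297.5, against p53_E60_TGGC, at 9293.5 (exact permutation test, adjusted p = 0.769).

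The CPD intensity of TC exceeded that of CC in 150 pairs and fell short of it in 18, by a median of 0.64. The 43 called, or 25.6%, compare with 32.8% of all such pairs, and the 142 called after the correction, or 84.5%, with 66.0%. The widest was MITF_Ex_sebox_59_ATCG, at 6186 ± 2542, against MITF_Ex_sebox_59_ACCG, at 1576 ± 1437 (difference 1.97; exact permutation test, adjusted p = 0.0232), and the narrowest MITF_sebox_60_GTCG, at 2330.5, against MITF_sebox_60_GCCG, at 2317 (exact permutation test, adjusted p = 0.51).

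CT holds the same bases as TC in the other order. It was dimmer than TC in 167 pairs on the 6-4PP UV array and brighter in 1. TC minus CT had a median of 1.28 on the log2 scale, with 152 pairs called higher, or 90.5%, against 58.5% of all inner TC against CT pairs. The median was 2.23 for ATCA, 1.96 for ATCG, 0.92 for GTCA and 0.62 for GTCG. TC was at the ceiling in 25 ATCA and 22 ATCG pairs, so the medians of ATCA and ATCG are lower bounds. The widest was MITF_ebox_60_ATCG, at 65535 ± 12729, against MITF_ebox_60_ACTG, at 7037 ± 3763 (SD over 10 spots each; difference 3.22, a lower bound; exact permutation test, adjusted p = 3.44e-05). The narrowest was p53_E60_TGAC, at 9297.5, against p53_E60_TAGC, at 9291.5 (exact permutation test, adjusted p = 0.97).

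In CPD intensity TC exceeded CT in 128 pairs, fell short of it in 40 and differed by a median of 0.34, and 16 were called, or 9.52%, against 8.18%, which does not set the members apart. After the correction 64 were called higher, or 38.1%, against 30.1%, and 3 lower, or 1.79%, against 18.5%. The widest was MITF_sebox_59_TGAT, at 4842.5 ± 2664, against MITF_sebox_59_TAGT, at 1558.5 ± 1778 (difference 1.64), which did not pass (exact permutation test, adjusted p = 0.121). The narrowest was MITF_Ex_sebox_60_GTCG, at 3317.5, against MITF_Ex_sebox_60_GCTG, at 3320 (exact permutation test, adjusted p = 0.389).

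Among all endings of its library, a TC member held the highest 6-4PP UV value, shared at the ceiling or alone, in 18 of 21 libraries, and the highest CPD UV value in 0. On the 6-4PP UV array all 42 ATCA and 40 of 42 ATCG members were above their library's median, against 4 of 42 GTCA and 5 of 42 GTCG members. The CPD counts were 38 for ATCA, 31 for ATCG, 11 for GTCA and 4 for GTCG. Members thus stood on either side of their library's middle according to the base before TC.

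The median over the 8 members of a library ranged on the 6-4PP UV array from 14799 in MITF_Ex_sebox_59 to 40192.5 in p53_mut_60. The highest were p53_mut_60, MITF_ebox_60 (40039.75), NP_MITF_ebox_60 (39892), MITF_sebox_60 (39629.5) and p53_60 (39007.75). These 5 libraries place G before the varied bases and C after them, and each had 4 members at the ceiling, so their order is not resolved. TBP_60 followed with 33201.5 and 3 members at the ceiling.

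Lower 6-4PP UV medians were found in p53_E_mut_60 (26447.25), MITF_sebox_59 (26375.75), MITF_ebox_59 (26132.75), TBP_MUT_60 (23058.5), MITF_Ex_sebox_60 (22668), TBP_E59 (21973.5) and MITF_Ex_ebox_60 (21554). TBP_E60 (20034.75), TBP_MUT_E59 (19046.75), TBP_MUT_E60 (18675.25), TBP_59 (17173.75), p53_E60 (16603.5), TBP_MUT_59 (16034.25) and MITF_Ex_ebox_59 (15542.5) followed. TBP_E60, TBP_MUT_E60 and p53_E60 had 0 members at the ceiling. Neighbours in this order differed by less than the spread of members within either library.

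Library medians spanned 1.89-fold for CPD and 2.72-fold for 6-4PP after irradiation. p53_E60 (5933) and p53_E_mut_60 (5870) were the highest, NP_MITF_ebox_60 (4880.5), TBP_E59 (4594.75) and MITF_ebox_59 (4438.75) came next, and MITF_sebox_60 (3136.25) was the lowest. These ends were not fixed, since the lowest library was TBP_E60 after the correction and TBP_60 with means of log2 spots, which also put p53_E_mut_60 highest. The other 15 lay between 3357.25 in MITF_Ex_ebox_59 and 4366 in MITF_sebox_59. Library medians also differed without irradiation, the lowest CPD median being 27.75 in MITF_Ex_sebox_60 and the highest 36 in TBP_E59. For 6-4PP the lowest was 36.25 in p53_60 and the highest 63.75 in MITF_sebox_59.

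The libraries with a changed factor site could be set against their unchanged partners in 80 pairs of the same ending. The median log2 difference, changed minus unchanged, was -0.04 for CPD and 0.00 for 6-4PP after irradiation, the second with 30 higher and 30 lower among 60 pairs below the ceiling. These pairs differ by several bases and were not tested. The p53 E pair stood apart on the 6-4PP UV array, where p53_E_mut_60 exceeded p53_E60 in 8 of 8 endings by a median of 0.47. The widest difference there, 1.49 for ATCG, is a lower bound, since the changed oligo was at the ceiling. The changed bases lie on both sides of the ending, and 1 of them follows after an unchanged base. In ATCG and GTCG that one completes an ATC on the opposite strand, GTCG being at 26339.5 in p53_E_mut_60 and 9761 in p53_E60. Without irradiation its 6-4PP intensity was also higher, in 7 of 8 endings, by a median of 0.26.

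Without irradiation, 1 member was far above the rest. MITF_ebox_60_GTCA had 229.5 ± 59.1 with the anti-CPD and 275.5 ± 84.2 with the anti-6-4PP antibody (SD over 10 spots each). The next members were TBP_E59_TGAT at 60 ± 11.1 and TBP_MUT_E59_TGAT at 58 ± 10.6 with the anti-CPD antibody, and MITF_sebox_60_GTCA at 76.5 ± 7.45 and MITF_Ex_ebox_59_CGAT at 73.5 ± 8.53 with the anti-6-4PP antibody. On the UV arrays MITF_ebox_60_GTCA had 3089.5 ± 1346 with the anti-CPD and 14544.5 ± 2701 with the anti-6-4PP antibody, within the range of the other GTCA members.

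A change from G to A before TC, or from A to G after it, removed most of the signal of MITF_ebox_60_GTCA. With A before TC, MITF_ebox_60_ATCA had 26 ± 5.54 for CPD and 58 ± 6.4 for 6-4PP, and with G after TC, MITF_ebox_60_GTCG had 28.5 ± 2.59 and 56.5 ± 4.39 (SD over 10 spots each). The exact permutation test gave GTCA an adjusted p of 0.000722 for CPD and 0.00165 for 6-4PP against each of these. NP_MITF_ebox_60_GTCA, which shares the bases up to the ending and the 6 after it and differs further downstream, had 52 ± 7.81 and 69.5 ± 7.89. The high signal was not particular to TC. MITF_ebox_60_GTCA ranked 2 among all endings of its library on both non-UV arrays, so an ending outside the members was brighter. Of all 5376 names, MITF_ebox_60_GTAA, with A in place of C, had the smallest UV minus non-UV difference, at 3.67 for CPD and 4.62 for 6-4PP.

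The 5 GTCA members followed by CA, all of 60 bases, ranged from 32 to 229.5 with a median of 39 for CPD and from 41 to 275.5 with a median of 69.5 for 6-4PP, both without irradiation. The other 163 members lay between 26 and 60 for CPD, and between 32 and 73.5 for 6-4PP. p53_60_GTCA had 37 ± 3.94 and 45 ± 4.89 for the same antibodies, so not all 5 stood out in level.

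How closely a value repeats can be read from 40 members whose sequence was also printed under another name. The median absolute log2 difference between the names was 0.27 with UV and 0.10 without UV for CPD, and 0.08 with UV and 0.05 without UV for 6-4PP, leaving out 6 pairs of names at the ceiling with UV. The largest for CPD with UV was 1.25 for MITF_ebox_60_CGAC, and after the correction the largest was 0.55. For 6-4PP with UV the largest was 0.31, below the 0.41 of the narrowest pair that differed by A or G before TC.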

How the data were processed

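Designed oligos were bound with antibodies on 4 arrays, 1 for each antibody and condition. Fluorescence intensity per spot on a linear scale was deposited by the authors, per the file headers, together with an intensity without flagged spots, a local median and a spatially adjusted intensity. How the arrays were scanned, the UV dose, how double strands were made and which software filled these columns were not given in the sources used here. Every spot held the same value in the Cy3 column, so the amount of DNA in a spot could not be taken into account.

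The value of a name was the median of its unflagged spots in the unadjusted intensity. Python 3.11.15, NumPy 2.4.6, pandas 2.3.3 and SciPy 1.17.1 were used. Pairs of names that differ by 1 substitution, an exchange of the inner bases or reverse complementation of the 4 varied bases within a library were compared by an exact two-sided permutation test of mean log2 intensity over spots. P-values were Benjamini-Hochberg adjusted over 36792 pairs on each array, with a threshold of 0.05. With 10 spots against 10 the smallest p is 1.08e-05. The test was checked on simulated data. Pairs at the ceiling in both oligos were left out of medians and directions and stayed in the denominator of percentages.

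Members and comparisons were chosen with earlier results of these data known. Named were the contexts, every library, the 3 highest and 3 lowest members per UV array, the 3 highest per non-UV array and the widest and narrowest pair of each comparison on the UV arrays. Sequences printed are a selection of the first 59-base and 60-base libraries, ATCA endings and extreme members, with 4 more chosen after their values were seen, as were the groups by ATC, TCGA and TT and the further members named beside them. On the 6-4PP UV array the highest members tie at the ceiling, so the highest below it are named. Alternatives were the adjusted intensity, means of spots, flagged spots kept, names at the ceiling left out, each distinct pair counted 1 time, either length alone, the same number or types of edge dipyrimidine, TC as the only dipyrimidine and the titles of the 6-4PP arrays.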

Additional observations from a re-analysis of the deposited data

Results flagged for a closer look

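TC and TT between the same flanking purines stood in opposite order with the 2 antibodies after irradiation. The TC minus TT median was 0.32 for 6-4PP and -0.66 for CPD on the log2 scale, and the 6-4PP median minus the CPD median was 0.98. With 1 array per antibody, the difference between antibodies was not tested. The antibodies were used at different dilutions, and pairs at the ceiling of the 6-4PP UV array in both oligos give no difference.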

How the results depend on the processing

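Of 371 alternative values, 345 lay close to the reported value, which means within the spot SD for a median and within 1.5-fold for a share. Of the rest 25 moved and 1 reversed. Some alternatives left the pairs unchanged, such as counting each distinct pair 1 time, or leaving out CPD names at the ceiling. For CPD with UV the spot SD of 0.72 was wider than the medians for the base after TC, the strands and TC against TT, CC and CT. The count of close values is therefore no measure of how firm those medians are. Among the 345, 3 medians near 0 changed sign, all for the opposite against the listed strand. For CPD with UV, -0.138 became 0.0389 in 59-base oligos and 0.102 with the same types of edge dipyrimidine, and for 6-4PP without UV, 0.0132 became -0.00995 with the same types. If the titles of the 6-4PP arrays were right and the condition field wrong, the median UV minus non-UV difference for 6-4PP would be -8.55 in place of 8.55, and the brighter array would be the non-irradiated one. With the spatially adjusted intensity, the share of CPD pairs called rose to 85.7% for A against G before TC and 40.5% for A against G after it. It rose to 85.1% lower for TC against TT, 84.5% for TC against CC, 38.1% for TC against CT and 36.9% lower for the opposite against the listed strand. The spot SD was smaller in that column. Calls over all 36792 CPD UV pairs rose as well, from 10912 to 21010, so the rise was not particular to the members. For the strands, the adjusted share over all reverse-complement pairs is not given here. Without names at the ceiling, 6-4PP medians were 1.5 for the base before TC, 0.866 for TC against CC, 1.02 for TC against CT and 8.06 for the UV difference, and the log2 ratio of the highest to the lowest library was 1.12. In 60-base oligos alone the base before TC gave 2.16, and in 59-base oligos alone 9.38% of CPD pairs were called for the base after TC.

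With the same edge dipyrimidines in both oligos, the base before TC gave 15.0% of CPD pairs (CPD median 0.589, and 77.5% called with the adjusted intensity) and a 6-4PP median of 1.48, the base after it gave 4.55% of CPD and 40.9% of 6-4PP pairs, and the strands gave 5.56% lower for CPD and 25.0% lower for 6-4PP. With TC as the only dipyrimidine the base before TC gave 12.5% of CPD pairs (CPD median 0.725, and 100% called with the adjusted intensity) and a 6-4PP median of 1.5, the base after it 0.0% for CPD and 68.8% for 6-4PP, TC against TT a 6-4PP median of 0.667 and TC against CT 6.25% of CPD pairs. These restrictions on edges were added after the data had been seen and leave fewer pairs, and strand with TC alone could not be run. No share over all pairs was taken under the same restrictions. The cause of the other shifts was not tested.

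No paired analysis was possible because each group held 1 array. That number, the ceiling of the 6-4PP UV array, the local unevenness of the CPD UV array and an amount of DNA per spot that was not measured limit the precision. Oligos of 1 library share most of their sequence and are not independent.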
